A study of Rattus norvegicus with 6 samples.

Results

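The carriers described here are the members of the solute carrier family 25, the Slc25 genes, taken as every gene symbol that consists of Slc25a and a number. There are 46 such symbols among the 21026 genes counted, and 41 of them had enough reads to be tested among 14273 genes. RNA sequencing compared cultured stromal cells of rat bone marrow, labelled mesenchymal stem cells, in 3 libraries labelled young and 3 labelled aged. The sample titles do not say whether these words refer to the donor animals or to the cells. No genetic change, drug or other treatment is named for either group, and nothing is stated of ages, sex, passage or pooling. The labels call the libraries biological replicates without tying each to an animal, so every p-value here reflects the spread of these 6 libraries alone, part of which may be technical.

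Slc25 carriers are proteins of the mitochondrial inner membrane, apart from a few members in other membranes. Most are built from a repeated unit of paired membrane helices, and most exchange a solute of the cytosol for one of the matrix. They let ADP in and ATP out, bring in phosphate, move citrate, malate, amino acids and acylcarnitines, and supply the matrix with nucleotides, cofactors, iron and glutathione. In marrow stromal cells this traffic links the matrix enzymes of energy metabolism with lipid synthesis, collagen precursor supply and redox balance in the cytosol.

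Library totals ran from 34638874 to 42479626 counts. Of the 10 stromal markers examined, all were counted, with summed levels of 41120 to 41630 CPM (read counts put on a common scale per library) in young libraries and 20740 to 20970 CPM in aged ones. Lepr, a receptor gene of marrow stroma in vivo, was the lowest of them, at 0.120 CPM in young and 0.544 CPM in aged cells. Col1a1 and Col1a2 made up most of these sums, and single stromal markers differed. Col1a1, Col1a2, Pdgfra, Pdgfrb, Thy1, Cd44 and Cxcl12 were lower in aged cells, Nt5e and Lepr were higher and Eng was not called. Cxcl12 fell from 3387 to 203 CPM and Thy1 from 4234 to 1621 CPM, whereas Nt5e rose from 10.5 to 47.3 CPM. The blood cell marker Ptprc had 1 count in all 6 libraries together, and the endothelial genes Pecam1, Cdh5 and Emcn had at most 3 counts in any library. Of the other endothelial markers, Tek had 3 young and 50 aged counts and Kdr had 1 and 7, and the 5 markers together summed to 0.0280 to 0.111 CPM in young and 0.307 to 0.619 CPM in aged libraries. The 8 blood and macrophage markers found in the file summed to 92.9 to 96.0 CPM in young and 43.4 to 44.2 CPM in aged libraries, but single markers went opposite ways. Cd14 fell from 80.7 to 21.0 CPM. Mean levels in young and aged cells were 10.4 and 0.173 CPM for Lyz2, and 0.321 and 21.8 CPM for the macrophage receptor gene Csf1r. The 5 adipocyte markers summed to 617 to 671 CPM in young and 40.8 to 43.9 CPM in aged libraries. Nearly all of the aged sum was Lpl, at 290.4 CPM in young and 42.05 CPM in aged cells. The others were close to absent from aged cells. Fabp4 went from 320.8 to 0.0234 CPM, Plin1 from 25.7 to 0.186 CPM, Cidec from 5.295 to 0.0854 CPM and Adipoq from 0.297 to 0.0476 CPM. These differences in marker levels run along with the group, and their part in the carrier results was not tested. In bulk RNA, fewer cells of a type and less RNA per cell cannot be told apart.

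In aged cells, 4 of 5 tested carriers of ADP, ATP and phosphate and all 4 tested carriers of carboxylates and carnitine esters were lower, whereas 7 of 10 carriers of nucleotides and cofactors and all 3 relatives of the uncoupling proteins were higher. Over the whole family, 22 of 41 tested members rose and 18 fell in aged cells (edgeR quasi-likelihood test, adjusted p under 0.05). Of these, Slc25a43, Slc25a47 and Slc25a48 among the risers and Slc25a52 among the fallers passed the filter on low counts through only the group where they were high. Of all tested genes 86.4% were called, 44.7% as higher and 41.8% as lower, so the number of called carriers is read against a high background. At least a 2-fold change was seen for 10 of the risers and 10 of the fallers among 41 members, together 48.8% of members. Of all tested genes 29.4% and 21.0% met the same rule, together 50.4%. The CPM ranges of young and aged libraries did not overlap for 40 of 41 members, where 87.5% of tested genes were so separated. The median log2 change of the members was 0.15, beside 0.05 for all tested genes. Scaling by library totals alone raised log2 changes by a median of 0.34, and 23 members were then higher and 13 lower. Under that scaling 7704 genes of the whole table were higher and 4654 lower, in place of 6375 and 5964.

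**Figure D1:**
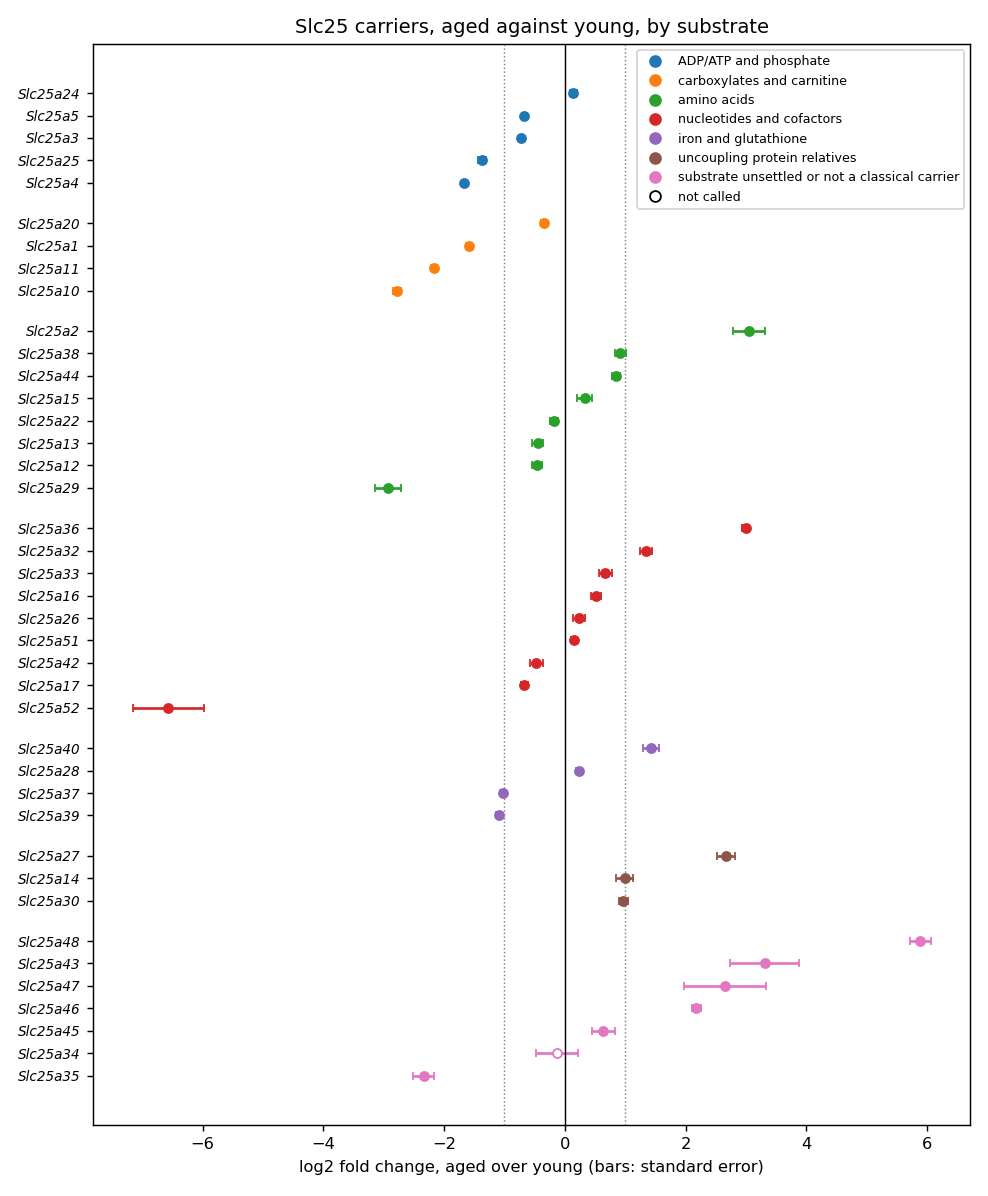
Log2 fold change of 40 tested Slc25 genes, aged over young, with its standard error as a bar, grouped by substrate. Filled points passed the test and the open point did not, and dotted lines mark a log2 change of -1 and 1. Carboxylate and carnitine carriers all lie left of 0 and uncoupling protein relatives all lie right of it.

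Reads on the family as a whole were fewer in aged cells. Summed over all 46 members, the young libraries held 2563, 2515 and 2564 CPM and the aged ones 1703, 1694 and 1682 CPM. The young-to-aged ratio of the means was 1.51, and 1.19 when libraries were scaled by their totals alone. Slc25a4 alone took 27.4% ± 0.591 of these reads in young cells and 13.0% ± 0.312 in aged ones (SD, n = 3 each). These are shares of reads, not of transcript molecules, because the values are not corrected for transcript length. The 43 members other than Slc25a3, Slc25a4 and Slc25a5 summed to 1209 ± 12.3 CPM in young and 1083 ± 21.1 CPM in aged cells. That smaller difference changed direction with library totals as the scale, at 1076 and 1217 CPM, so no direction is given for it.

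**Figure D2:**
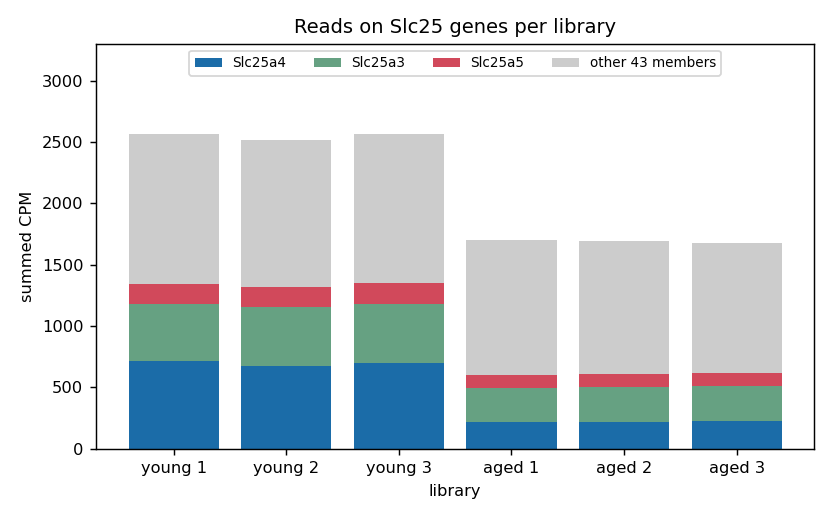
Summed CPM of the Slc25 genes in each library, stacked by Slc25a4, Slc25a3, Slc25a5 and the other 43 members. The 3 young bars reach 2515 to 2564 CPM and the 3 aged bars 1682 to 1703 CPM, and the Slc25a4 segment shrinks most.

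The carriers that serve ATP synthase fell, and 41.8% of all tested genes were also called lower. Slc25a4, the adenine nucleotide translocase best known from heart and muscle, exchanges matrix ATP for cytosolic ADP. It had 717, 674 and 703 CPM in the young libraries and 217, 217 and 224 CPM in the aged ones. The groups were far apart, with a 3.18-fold fall (log2 change -1.67 ± 0.03 SE, adjusted p = 1.2e-17). Slc25a5, the translocase isoform of proliferating cells, had 167, 164 and 171 CPM in young and 105, 106 and 105 CPM in aged libraries. It fell 1.59-fold (adjusted p = 2.0e-11). Slc25a3, the phosphate carrier, which also brings copper into the matrix, had 461, 482 and 476 CPM in young libraries and 279, 285 and 291 CPM in aged ones, a 1.66-fold fall (adjusted p = 6.9e-13). Slc25a6 is a further translocase gene in this annotation, but it held at most 2 counts in any library and was not tested. RefSeq names 9 pseudogenes for Slc25a5, 2 for Slc25a3 and 1 for Slc25a4, and reads that match such copies could have been split or dropped in counting.

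Unlike that pair, the calcium-regulated ATP-Mg/phosphate carriers, which set the total adenine nucleotide content of the matrix, moved apart. Slc25a25 had 60.2, 57.1 and 59.4 CPM in young and 22.4, 23.5 and 22.1 CPM in aged libraries, a 2.59-fold fall (adjusted p = 2.6e-13). Slc25a24 had 52.6, 60.7 and 56.4 CPM in young and 64.7, 61.8 and 60.8 CPM in aged libraries. The groups of Slc25a24 barely separate. It passed with a 1.10-fold difference (adjusted p = 0.029), but not without young replicate 1, young replicate 3, aged replicate 1 or aged replicate 2 (adjusted p = 0.26, 0.095, 0.12 and 0.058). Slc25a23, the other carrier of this type in the table, had 2 counts in young and 15 in aged libraries and was not tested. Its scaled aged-to-young ratio was 6.64, with a 95% exact binomial interval of 1.54 to 59.8 that covers counting error only, and its libraries overlapped between groups.

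Carriers of di- and tricarboxylates and of carnitine esters fell. Slc25a10, the dicarboxylate carrier that exchanges malate and succinate for phosphate, had 86.1, 81.0 and 89.2 CPM in young and 12.8, 12.3 and 12.3 CPM in aged libraries. It fell 6.86-fold (log2 change -2.78 ± 0.06 SE, adjusted p = 3.6e-17). Slc25a11, the oxoglutarate carrier, brings reducing equivalents into the matrix as part of the malate-aspartate shuttle. Its levels were 118, 111 and 117 CPM in young and 26.9, 24.5 and 25.3 CPM in aged libraries, a 4.51-fold fall (adjusted p = 1.5e-16). Slc25a1, the citrate carrier that exports acetyl units for fatty acid and cholesterol synthesis, fell 2.99-fold from 89.2 ± 1.69 to 29.8 ± 1.10 CPM. Slc25a20 carries acylcarnitines in for fatty acid oxidation. It had 71.5, 70.6 and 70.7 CPM in young and 56.9, 56.1 and 54.7 CPM in aged libraries, a 1.27-fold fall that did not pass when scaled by library totals alone (adjusted p = 0.90). The 4 tested carriers of this group were all lower, as were 41.8% of all tested genes. Their median log2 change was -1.88, or -1.54 with library totals as the scale. Slc25a21, the oxodicarboxylate carrier, had 1 young and 13 aged counts and was not tested, and the ratio of 11.5 has a 95% interval of 1.73 to 489. That interval covers counting error only. The aged libraries of Slc25a21 held 7, 6 and 0 counts, so the groups overlapped.

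The promoters of the most strongly read pair and of the falling dicarboxylate pair are shown, with that of Slc25a27, a carrier that rose, for contrast. They are the 250 bases before the transcript start from RefSeq, assembly GRCr8, read 5′ to 3′ on the gene's strand. Capitals mark any of 5 short motifs, each searched on both strands. The GC box was searched as GGGCGG, the box named after its letters as CCAAT, and the box found near many start sites, the TATA box, as TATAAA. The core of the site for nuclear respiratory factor NRF1 was searched as TGCGCA, and that for the estrogen-related receptors, ERR, as AAGGTCA.
Slc25a4, chr16:52805271-52805520, plus strand: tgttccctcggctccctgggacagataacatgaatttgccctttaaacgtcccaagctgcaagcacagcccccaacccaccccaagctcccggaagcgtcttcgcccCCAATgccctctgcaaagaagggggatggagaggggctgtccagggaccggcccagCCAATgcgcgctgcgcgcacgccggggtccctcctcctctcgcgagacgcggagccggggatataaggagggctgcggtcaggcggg
Slc25a5, chrX:120897366-120897615, plus strand: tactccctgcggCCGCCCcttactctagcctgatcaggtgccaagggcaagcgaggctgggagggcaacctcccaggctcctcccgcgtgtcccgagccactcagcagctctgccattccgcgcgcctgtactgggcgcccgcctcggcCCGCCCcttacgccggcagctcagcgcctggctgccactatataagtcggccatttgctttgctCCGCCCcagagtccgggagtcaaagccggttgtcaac
Slc25a10, chr10:106264146-106264395, plus strand: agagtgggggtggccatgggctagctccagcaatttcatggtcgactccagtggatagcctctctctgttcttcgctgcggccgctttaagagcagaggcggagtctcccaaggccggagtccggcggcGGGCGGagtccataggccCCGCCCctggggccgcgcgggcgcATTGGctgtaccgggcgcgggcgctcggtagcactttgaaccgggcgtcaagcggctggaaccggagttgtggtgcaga
Slc25a11, chr10:55859061-55859310, minus strand: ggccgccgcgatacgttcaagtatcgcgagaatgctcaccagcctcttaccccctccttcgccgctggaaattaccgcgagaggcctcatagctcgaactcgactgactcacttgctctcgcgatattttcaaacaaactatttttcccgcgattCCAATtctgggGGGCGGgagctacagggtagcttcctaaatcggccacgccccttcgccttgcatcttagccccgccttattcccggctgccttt
Slc25a27, chr9:24804058-24804307, plus strand: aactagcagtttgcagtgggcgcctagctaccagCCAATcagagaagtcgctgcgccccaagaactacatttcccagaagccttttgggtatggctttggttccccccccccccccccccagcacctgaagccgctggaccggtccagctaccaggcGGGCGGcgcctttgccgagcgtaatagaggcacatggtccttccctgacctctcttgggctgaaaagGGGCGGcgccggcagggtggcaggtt

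The translocase promoters differ in these letters. Slc25a4 holds 2 CCAAT boxes and no GC box, whereas Slc25a5 holds 3 GC boxes and no CCAAT box. Both dicarboxylate carriers hold at least 1 of each, and so does Slc25a27. Promoter sequences were found for 38 of the 46 members. A CCAAT box lay in 21 of the 38, or 55.3%, where 34.3% of 15567 promoters of counted genes hold it. GC boxes lay in 57.9% of member promoters and in 48.0% of all. The NRF1 core letters were in 3 windows (7.89%), those of Slc25a3, Slc25a12 and Slc25a25, and in 9.54% of all promoters, and the ERR letters were in 1 window, that of Slc25a34, and in 3.10% of all. A TATA box lay in 2, Slc25a38 and Slc25a48, beside 8.52% of all. No overlaps between the marked motifs occur in the windows shown. A match in letters is a description and not a bound site. GC content of the windows had a median of 65.4% for 16 members that fell and 55.8% for 16 members that rose, with ranges of 52.4% to 76.4% and 47.6% to 75.2%. Among all called genes with a promoter, the medians were 60.4% for those that fell and 59.6% for those that rose.

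Amino acid carriers were divided, with 4 of 8 tested members higher and 4 lower. That is close to the split of all tested genes, 44.7% higher and 41.8% lower. Slc25a12 and Slc25a13 encode aralar and citrin, which export aspartate for glutamate and form the other arm of the malate-aspartate shuttle. Slc25a12 had 19.1, 21.2 and 19.7 CPM in young and 14.8, 14.7 and 14.3 CPM in aged libraries. Slc25a13 had 15.1, 13.9 and 15.6 CPM in young and 11.7, 10.4 and 10.7 CPM in aged libraries. The 2 genes moved side by side, with falls of 1.37-fold and 1.36-fold (adjusted p = 3.8e-05 and 2.4e-04), neither of which passed with library totals as the scale (adjusted p = 0.16 and 0.27). Slc25a22, a glutamate carrier, was lower at 31.4 ± 0.873 CPM in aged than at 35.6 ± 2.24 CPM in young cells (adjusted p = 0.016), but was higher in aged cells when scaled by library totals (log2 change 0.16, adjusted p = 0.032). Its relative Slc25a18 had 0 counts in every young library, a level of up to 0.0791 to 0.0839 CPM if 3 counts are allowed for, and 1 count in all aged ones.

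Slc25a29, a carrier of arginine, lysine and other basic amino acids, showed the largest fall of this group. It had 8.09, 6.46 and 8.25 CPM in young and 0.944, 0.688 and 1.38 CPM in aged libraries, a 7.6-fold fall (log2 change -2.93 ± 0.21 SE, adjusted p = 6.0e-10). The ornithine carriers, which link arginine, proline and polyamine metabolism, rose. Slc25a2 had 0.471, 1.08 and 0.448 CPM in young and 5.28, 5.66 and 5.87 CPM in aged libraries, an 8.30-fold rise (adjusted p = 4.8e-09). In RefSeq the gene Taf7 overlaps Slc25a2, and its own log2 change was 0.56, so its reads could in part be counted with those of Slc25a2. Slc25a15 had 6.43, 6.86 and 7.64 CPM in young and 8.86, 7.72 and 9.76 CPM in aged libraries. The difference was 1.26-fold (adjusted p = 0.018) and did not pass without young replicate 1 (adjusted p = 0.087), aged replicate 1 (adjusted p = 0.051) or aged replicate 3 (adjusted p = 0.10). Slc25a38, the glycine carrier for heme synthesis, rose 1.89-fold from 15.9 ± 2.13 to 30.1 ± 0.571 CPM, and Slc25a44, the carrier of branched-chain amino acids, rose 1.81-fold from 31.0 ± 1.66 to 56.1 ± 0.908 CPM.

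Among 10 carriers of nucleotides and cofactors, 7 rose and 3 fell, where 44.7% of all tested genes rose and 41.8% fell. Slc25a36, which brings pyrimidine nucleotides in for mitochondrial RNA and DNA synthesis, had 21.4, 23.2 and 19.8 CPM in young and 179, 174 and 161 CPM in aged libraries. It rose 7.98-fold (log2 change 3.0 ± 0.06 SE, adjusted p = 1.0e-17), the largest rise of this group. Slc25a33, the other pyrimidine nucleotide carrier, had 7.62, 6.86 and 7.28 CPM in young and 11.2, 10.7 and 12.7 CPM in aged libraries, a 1.59-fold rise (adjusted p = 1.7e-05). A gene named as a copy, Slc25a36l1, rose as well, by 2.21 on the log2 scale (adjusted p = 2.9e-06), and reads shared with Slc25a36 cannot be told apart in gene counts.

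Other cofactor carriers rose less than Slc25a36. Slc25a32, the carrier for folate and flavin, rose 2.54-fold from 7.16 ± 0.527 to 18.2 ± 1.74 CPM (adjusted p = 9.2e-10). Slc25a26, which imports the methyl donor S-adenosylmethionine, was 1.18-fold higher (adjusted p = 0.029) but did not pass with DESeq2 (adjusted p = 0.056), with no low-count filter (adjusted p = 0.059) or without young replicate 1, young replicate 3 or aged replicate 1 (adjusted p = 0.064, 0.10 and 0.14). The 2 carriers linked to coenzyme A went opposite ways. Slc25a16 had 22.1, 18.7 and 19.6 CPM in young and 29.2, 28.1 and 29.2 CPM in aged libraries, a 1.43-fold rise (adjusted p = 5.2e-06). Slc25a42 had 16.6, 13.9 and 13.0 CPM in young and 11.1, 10.6 and 9.58 CPM in aged libraries, a 1.39-fold fall that did not pass with library totals as the scale (adjusted p = 0.24). Slc25a17, which serves peroxisomes rather than mitochondria, fell 1.59-fold from 50.6 ± 1.13 to 31.8 ± 0.927 CPM.

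NAD enters the matrix through Slc25a51, which had 75.6, 77.6 and 79.6 CPM in young and 86.2, 85.5 and 86.6 CPM in aged libraries, a 1.11-fold rise (adjusted p = 0.0046). Slc25a52, a close relative of it, had 2.27, 1.77 and 1.46 CPM in young libraries and 2 counts in all aged ones. The scaled young-to-aged ratio of Slc25a52 was 113.5, with a 95% exact binomial interval of 31.0 to 943.8. Slc25a52 passed the filter on low counts through the young libraries alone, so a difference was built into its being tested.

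Iron and glutathione carriers divided within each pair of paralogs. Slc25a37 and Slc25a28, the mitoferrins 1 and 2, supply iron for heme and iron-sulfur clusters. Slc25a37 had 125, 130 and 128 CPM in young and 62.5, 62.1 and 62.9 CPM in aged libraries, a 2.04-fold fall (adjusted p = 1.7e-13). Slc25a28 had 39.0, 37.9 and 38.8 CPM in young and 46.2, 45.5 and 45.1 CPM in aged libraries, a 1.18-fold rise (adjusted p = 5.1e-04). The mitoferrins thus separated cleanly between groups in opposite directions. Slc25a39, which imports glutathione, had 176, 166 and 167 CPM in young and 81.6, 82.3 and 75.0 CPM in aged libraries, a 2.13-fold fall (adjusted p = 2.1e-13). Its paralog Slc25a40 had 3.24, 3.40 and 3.22 CPM in young and 9.44, 9.24 and 7.97 CPM in aged libraries, a 2.70-fold rise (adjusted p = 1.4e-08). RefSeq names 8 pseudogenes for Slc25a39.

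The relatives of the uncoupling proteins were all higher in aged cells, as were 44.7% of all tested genes. Slc25a27, also called Ucp4 and best known from brain, had 1.5, 1.56 and 1.96 CPM in young and 10.5, 11.2 and 10.3 CPM in aged libraries, a 6.37-fold rise (adjusted p = 9.0e-12). Slc25a30 had 14.0, 13.7 and 12.7 CPM in young and 26.5, 26.3 and 26.2 CPM in aged libraries, a 1.96-fold rise (adjusted p = 1.4e-09). Slc25a14 had 3.08, 3.82 and 3.47 CPM in young and 7.0, 7.08 and 6.48 CPM in aged libraries, a 1.98-fold rise (adjusted p = 4.2e-06). The neighbouring gene Zfp280c overlaps Slc25a14 in RefSeq and rose by 5.12 on the log2 scale. Without a stated strand setting, reads of the overlap cannot be assigned to either gene. The classical uncoupling protein gene Ucp2 rose 2.32-fold from 21.3 ± 0.991 to 49.3 ± 2.38 CPM, and Ucp1 and Ucp3 were too low to test.

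Members whose substrate is unsettled or that are not classical carriers showed no common direction among those that passed the low-count filter in both groups. Slc25a45 and Slc25a46 rose, Slc25a35 fell and Slc25a34 was not called. Slc25a48, which has been linked to choline transport, had 0.305, 0.237 and 0.532 CPM in young and 21.1, 21.9 and 20.9 CPM in aged libraries. These are 39 young and 2643 aged counts, with a fitted log2 change of 5.89 ± 0.17 SE. Slc25a48 passed the low-count filter through the aged libraries alone, as did Slc25a43 and Slc25a47, so a difference was built into their being tested. Slc25a46, a protein of the outer membrane that takes part in mitochondrial dynamics, rose 4.52-fold from 12.6 ± 1.13 to 56.9 ± 0.542 CPM (adjusted p = 5.6e-15). Slc25a45 was 1.56-fold higher in aged cells, at 6.07 ± 1.14 against 3.90 ± 1.04 CPM (adjusted p = 0.0039). Slc25a43 had 8 young and 94 aged counts, and Slc25a47, best known from liver, had 6 and 45. The scaled aged-to-young ratios were 10.4 (95% interval 5.07 to 24.8) for Slc25a43 and 6.64 (95% interval 2.82 to 19.0) for Slc25a47.

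Slc25a35 fell in this group and its relative Slc25a34 was not called. Slc25a35 had 6.98, 6.54 and 5.85 CPM in young and 1.53, 1.10 and 1.2 CPM in aged libraries, a 5.05-fold fall (adjusted p = 1.6e-09). Slc25a34 had 0.831, 0.897 and 0.812 CPM in young and 0.508, 0.940 and 0.871 CPM in aged libraries, and the groups overlapped (log2 change -0.13 ± 0.35 SE, adjusted p = 0.74). Slc25a53 had 8 young and 21 aged counts and was not tested. Overlaps with other protein-coding genes occur for 17 of the 46 members in RefSeq. Among them, Sap130 overlaps Slc25a46, Rangrf overlaps Slc25a35 and Lrig1 overlaps Slc25a26, with own log2 changes of 0.54, -0.52 and -1.93. Reads of such overlaps could in part be counted with those of the members.

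**Figure D3:**
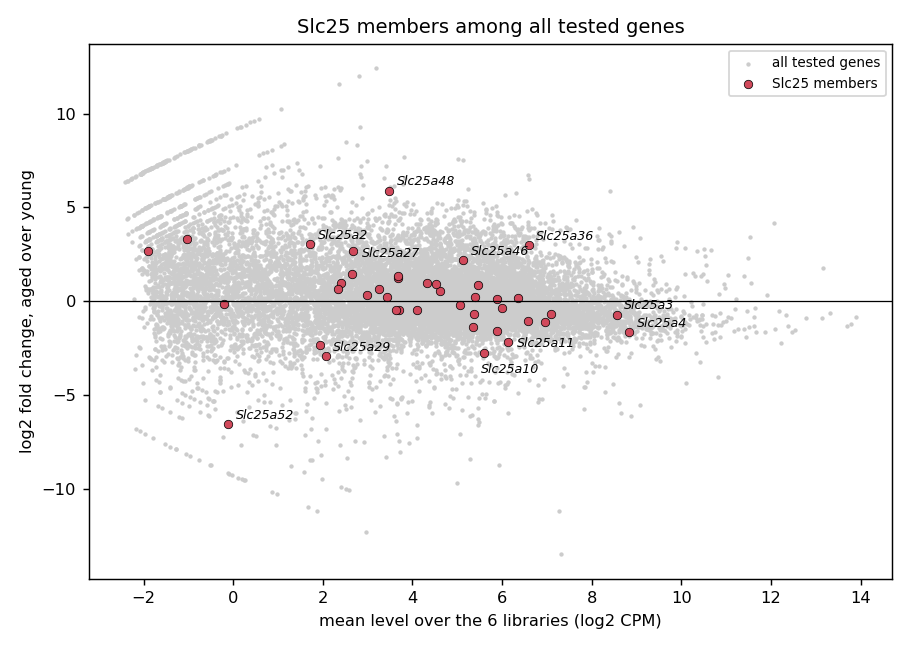
Log2 fold change, aged over young, against mean level in log2 CPM for all tested genes (grey) and the Slc25 members (red). Slc25a4 and Slc25a3 are the most heavily read members and lie below 0, Slc25a36 lies at 3.0, and Slc25a48 and Slc25a52, which passed the low-count filter through 1 group only, lie farthest from 0.

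Paralog balance was examined as the share of reads that the first gene of a pair takes, which does not depend on scaling between libraries. Of 11 pairs tested, 9 had shares that did not overlap between groups. Taken singly, 87.5% of all tested genes did not overlap in CPM, and shares in pairs of unrelated genes were not examined. The count of 9 is therefore not read as particular to these paralogs. With 3 libraries against 3, the smallest two-sided exact permutation p is 0.10, and those 9 pairs reached it (0.122 after adjustment over 11 pairs), so none could pass a threshold of 0.05. The share of Slc25a4 in reads of both translocases was 81.1%, 80.4% and 80.4% in young and 67.5%, 67.2% and 68.2% in aged libraries, a mean drop of 13.1 percentage points. Slc25a33 went from 25.3% ± 2.20 to 6.33% ± 0.825 of the reads it shares with Slc25a36. Slc25a24 went from 49.0% ± 2.46 to 73.3% ± 0.921 of its reads with Slc25a25, and Slc25a28 from 23.2% ± 0.627 to 42.2% ± 0.359 of its reads with Slc25a37.

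The largest shift was in the ornithine carriers, where the share of Slc25a15 beside Slc25a2 was 91.3% ± 4.34 in young and 61.0% ± 2.81 in aged cells. The share of Slc25a39 beside Slc25a40 went from 98.1% ± 0.0999 to 90.0% ± 0.389, and that of Slc25a10 beside Slc25a11 from 42.6% ± 0.648 to 32.8% ± 0.658. Slc25a16 beside Slc25a42 went from 58.2% ± 1.75 to 73.5% ± 1.58, and Slc25a34 beside Slc25a35 from 11.6% ± 0.858 to 37.7% ± 11.2. In 2 pairs the shares overlapped between groups. The aralar gene Slc25a12 took 57.3% ± 2.70 in young and 57.2% ± 1.38 in aged cells beside Slc25a13, and Slc25a14 took 20.4% ± 2.15 and 20.6% ± 0.704 beside Slc25a30 (exact permutation p = 1.0 for both).

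**Figure D4:**
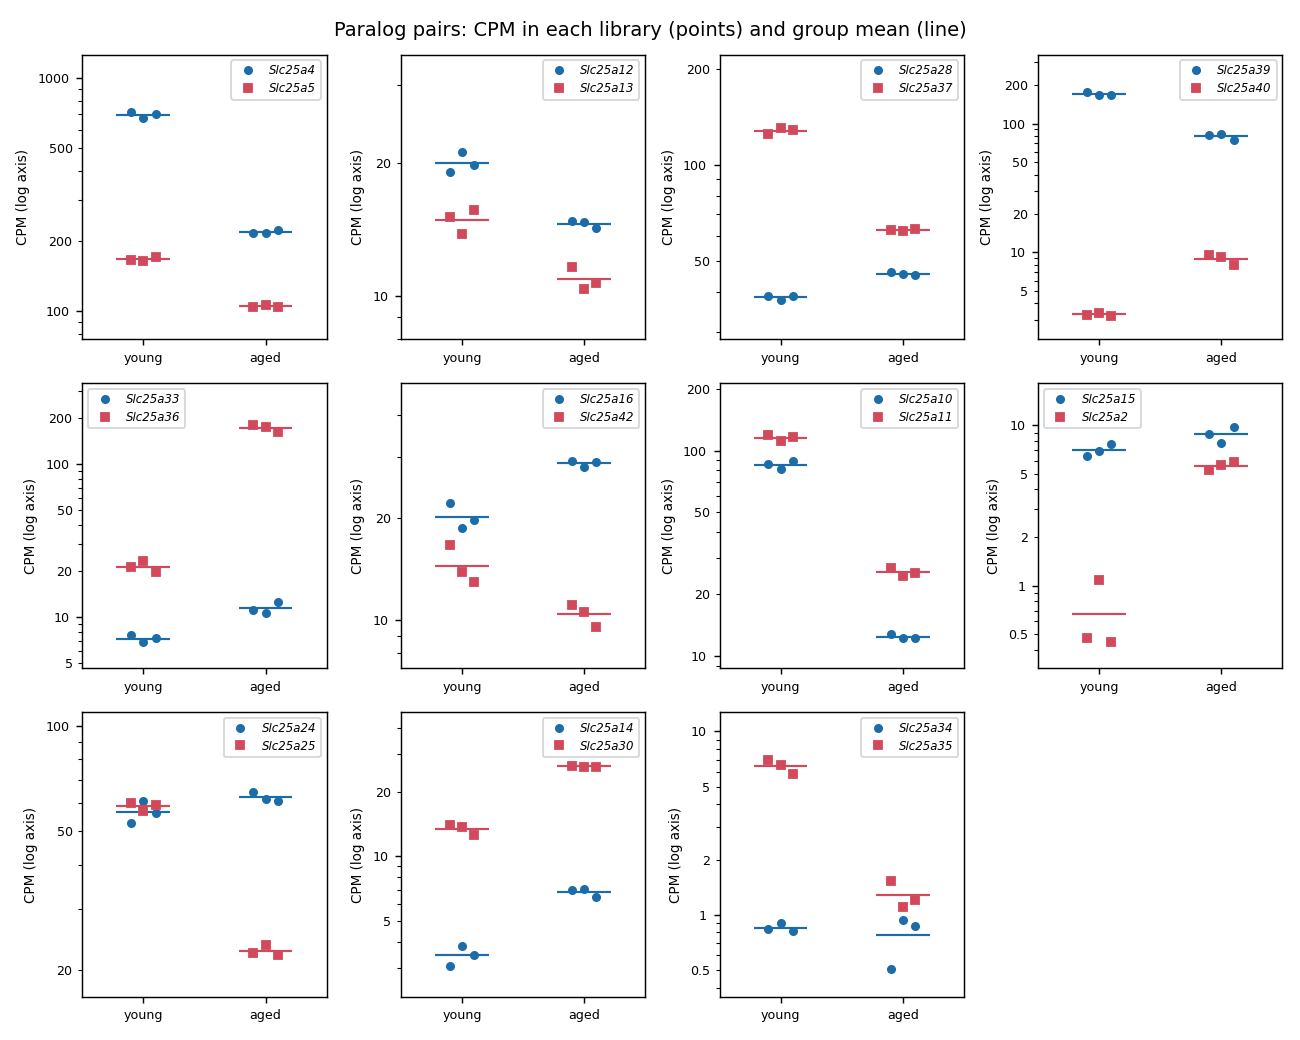
CPM of both genes of each paralog pair in every library (points, log axis) with the mean of each group as a line. The mitoferrins Slc25a28 and Slc25a37 approach each other in aged cells, Slc25a24 and Slc25a25 part, and Slc25a12 and Slc25a13 shift in parallel. Heights are not corrected for transcript length.

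Other transporters of the mitochondrial membranes also went both ways. Among 29 that were tested, 11 were higher and 14 lower in aged cells, where 44.7% of all tested genes were higher and 41.8% lower (86.4% called). With library totals as the scale the balance turned to 16 higher and 12 lower, and the median log2 change from -0.14 to 0.20. Mpc1 and Mpc2, the subunits of the pyruvate carrier, fell 1.67-fold and 1.88-fold. The outer membrane channel genes Vdac1, Vdac2 and Vdac3 fell 2.28-fold, 1.84-fold and 1.52-fold. The largest fall was in Tspo, an outer membrane protein that binds cholesterol, which went 5.21-fold down from 321 ± 14.5 to 61.6 ± 3.32 CPM. The largest rise was in Micu3, a regulator of the calcium uniporter, at 7.68-fold from 1.64 ± 0.394 to 12.7 ± 0.513 CPM. Mtch1, an outer membrane protein of Slc25 descent that carries another name, fell 4.38-fold from 661 ± 25 to 151 ± 3.99 CPM, while its relative Mtch2 had 119.8 ± 4.36 and 118 ± 2.52 CPM and was not called (adjusted p = 0.56).

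Enzymes that use the carried substrates were lower in 29 and higher in 19 of 50 tested genes, where 41.8% of all tested genes were lower and 44.7% higher. With library totals as the scale 21 were lower and 24 higher, and the median log2 change went from -0.26 to 0.07. The largest fall among those read at 5 CPM or more was in Gpd1, the cytosolic enzyme of the glycerol phosphate shuttle, at 37.8-fold from 26.7 ± 1.53 to 0.705 ± 0.506 CPM. Among partners of the malate-aspartate shuttle carriers, Got1 and Got2, the transaminases, fell 1.89-fold each and Mdh2, the matrix malate dehydrogenase, fell 1.80-fold. Mdh1, the cytosolic malate dehydrogenase, was only 1.15-fold lower, a log2 change of -0.20. That is smaller than the median shift of 0.34 brought by library totals as the scale. Citrate synthase, Cs, fell 2.05-fold. Acly, the enzyme that uses exported citrate, was only 1.08-fold lower. Its log2 change of -0.11 is also smaller than the median shift of 0.34. Me1, the cytosolic malic enzyme, rose 3.95-fold. Nadk2, the mitochondrial NAD kinase, rose 7.93-fold from 1.41 ± 0.498 to 11.3 ± 1.41 CPM.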

How the data were processed

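The authors deposited raw read counts per gene symbol, 1 column per library, as whole numbers without normalization. Per the submitters' processing notes, fastp, HISAT2 and HTSeq were used; the build, annotation, strand setting and filters were not given in the sources used here. Columns were matched to samples by the library names in the labels. The test was edgeR's (4.0.16, R 4.3.3) quasi-likelihood F test on group alone, after filterByExpr with a minimum count of 10 and TMM scaling. Benjamini-Hochberg adjustment covered all 14273 genes. CPM values use the TMM factors, and ± is the SD over 3 libraries. Standard errors are the log2 change divided by the square root of F. The procedure was tested on simulated counts in which few genes were changed, in random directions. In the real libraries 86.4% of tested genes were called, so that test does not bear on the choice of scaling. The members and lists were chosen with earlier results of these data known. Every tested member could be named; library values are given for paralog pairs, for the extremes of each substrate group and for the member not called. Among the members and the enzymes, 1 gene each is counted but not reported here by name. Of other transporters and enzymes, the other extremes and the subunits of Mpc and Vdac were named by rule. Ucp2, Mtch1, Mtch2, Got1, Got2, Mdh1, Mdh2, Cs, Acly, Me1 and Nadk2 were named after their values were seen. Alternatives were library-total and DESeq2 scaling, DESeq2 1.42.0, limma-voom (limma 3.58.1), other low-count filters, a replicate block and leaving out each library. Replicates of a group differed by more than sampling noise (chi-square per degree of freedom 3.11 to 10.6). Promoters came from RefSeq GRCr8, by symbol; all 46 symbols matched a gene there. Gene coordinates of the authors' build are not used.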

Additional observations from a re-analysis of the deposited data

How the results depend on the processing

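Over DESeq2, limma-voom, 2 other filters, DESeq2 size factors, a replicate block and each left-out library, 19 to 22 members were higher and 17 to 18 lower, beside 22 and 18. With DESeq2, 2 of the risers lost their call, Slc25a26 among them, which left 20 higher. Without 1 library, all-gene counts ran from 6241 to 6565 higher and from 5870 to 6012 lower. Library totals as the scale moved most. The summed level became 2267 CPM in young and 1902 CPM in aged cells (left-out libraries gave 2539 to 2564 and 1688 to 1699 CPM). Under it Slc25a22 reversed to a log2 change of 0.16 and Slc25a34, not called, to 0.21; Slc25a34 ran from -0.30 to 0.10 over left-out libraries and was at 0.10 without aged replicate 1. The calls of Slc25a12, Slc25a13, Slc25a20 and Slc25a42 were lost under it. Slc25a22 did not pass at a minimum count of 50 (adjusted p = 0.057) or without aged replicate 2 (adjusted p = 0.069). Calls of at least 2-fold became 15 higher and 8 lower. The share of Slc25a12 beside Slc25a13 ran from -0.927 to 1.42 percentage points, aged minus young, over left-out libraries, and that of Slc25a14 beside Slc25a30 from -1.05 to 0.888; the sign of neither is stable. No pairing of the libraries by replicate number was seen. Same-numbered libraries deviated together with correlations of -0.013, 0.0011 and 0.0098, and differently numbered ones with correlations of -0.0143 to 0.0135. Whether same-numbered libraries shared a batch was not tested. With the replicate block 22 members were higher and 18 lower, and all 41 kept their direction and side of the threshold. Depth limits the 5 members not tested and those with under 10 counts in a group; counting intervals there cover counting error only.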
